A study of Homo sapiens with 6 samples.

Results

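The genes described here belong to the ATF4 branch of the cell's stress response and to the enzymes and carriers that supply amino acids: transcription factors, the serine and folate one-carbon pathways, and amino acid transporters. They were named by symbol, with earlier results of these data known, in a list that sets no threshold on a measured value. All 35 were found among the 20442 genes of the count table. The RNA came from T24, a human cell line established from a bladder carcinoma, grown in RPMI1640 with serum. Cells attached for 24 h and then received, for another 24 h, an siRNA that targets KNSTRN (si-KNSTRN, 3 libraries) or a control siRNA (si-NC, 3 libraries). KNSTRN encodes a spindle protein also called kinastrin. The submitters call the libraries biological replicates. All libraries come from this single cell line, and the sequence of either siRNA is not given in the sources used here.

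ATF4 is a transcription factor of the basic leucine zipper family. When a kinase phosphorylates the translation factor eIF2, most protein synthesis slows while ATF4 messenger RNA is translated better through its upstream open reading frames. ATF4 then pairs with C/EBP proteins and switches on genes that make serine, asparagine and proline, feed the mitochondrial folate cycle and import amino acids, and also genes such as DDIT3, TRIB3 and CHAC1 that mark prolonged stress. In many tumours, PHGDH and the mitochondrial folate enzymes are expressed strongly and supply carbon for nucleotides.

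Library totals ran from 16386799 to 20596074 reads, so that 3 reads, the upper limit set by a count of 0 for counting error alone, stood for 0.146 to 0.183 CPM, the read count scaled to library size. KNSTRN itself had 13.6, 13.6 and 12.2 CPM in si-KNSTRN libraries 1 to 3, against 38.3, 41.2 and 41.9 CPM in si-NC libraries 1 to 3. The keratin genes KRT7, KRT8 and KRT18 averaged 1186, 1081 and 901 CPM in si-KNSTRN cells, against 1013, 1080 and 843 CPM in si-NC cells. Of 11 epithelial markers, 5 had at most 3 reads in every library. Among them were the E-cadherin gene CDH1 and the uroplakin genes UPK1B, UPK2 and UPK3A. KRT19, EPCAM and GATA3 were scarce, averaging 0.801, 0.695 and 1.37 CPM in si-KNSTRN cells, against 1.03, 0.722 and 1.64 CPM in si-NC cells. Markers of leukocytes, endothelium and fibroblasts summed to 58.1 to 59.5 CPM in si-KNSTRN libraries and 43.2 to 50.9 CPM in si-NC libraries, with 6 of 12 at no more than 3 reads throughout. Most of that sum was CD68, which lysosomes of many cells express. The fibroblast marker COL1A1 averaged 11.1 CPM in si-KNSTRN cells and 13.3 CPM in si-NC cells. The part of either gene in the results was not tested.

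In si-KNSTRN cells the members moved in both directions. The stress regulators DDIT3, ATF5, CEBPB, CEBPG and TRIB3 were higher, whereas ATF4 itself was lower. The eIF2 phosphatase subunit genes PPP1R15A and PPP1R15B and the glutathione-degrading enzyme gene CHAC1 were higher too. Of the serine synthesis genes, PHGDH and PSPH were lower, while the mitochondrial folate enzyme gene MTHFD2 was higher. The glycine transporter gene SLC6A9, the cysteine synthesis gene CTH and the receptor gene VLDLR were at 0.268, 0.502 and 0.464 of their si-NC levels in the fit. In edgeR's quasi-likelihood test, which could be run on 34 members, 13 rose, 9 fell and 12 were not called at an adjusted p under 0.05. Of all 12650 genes tested, 62.5% were called, 31.2% higher and 31.3% lower. The members' share of 64.7% called (38.2% higher, 26.5% lower) lies near that background, so that the count alone sets nothing apart about them. Their median absolute log2 fold change was 0.29, beside 0.28 over all genes tested. In 22 of the 34 members, no si-KNSTRN library overlapped a si-NC library in level, and 67.3% of all genes tested had such a gap. In cultures sequenced in bulk, fewer cells expressing a gene and less RNA per cell cannot be told apart.

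**Figure D1:**
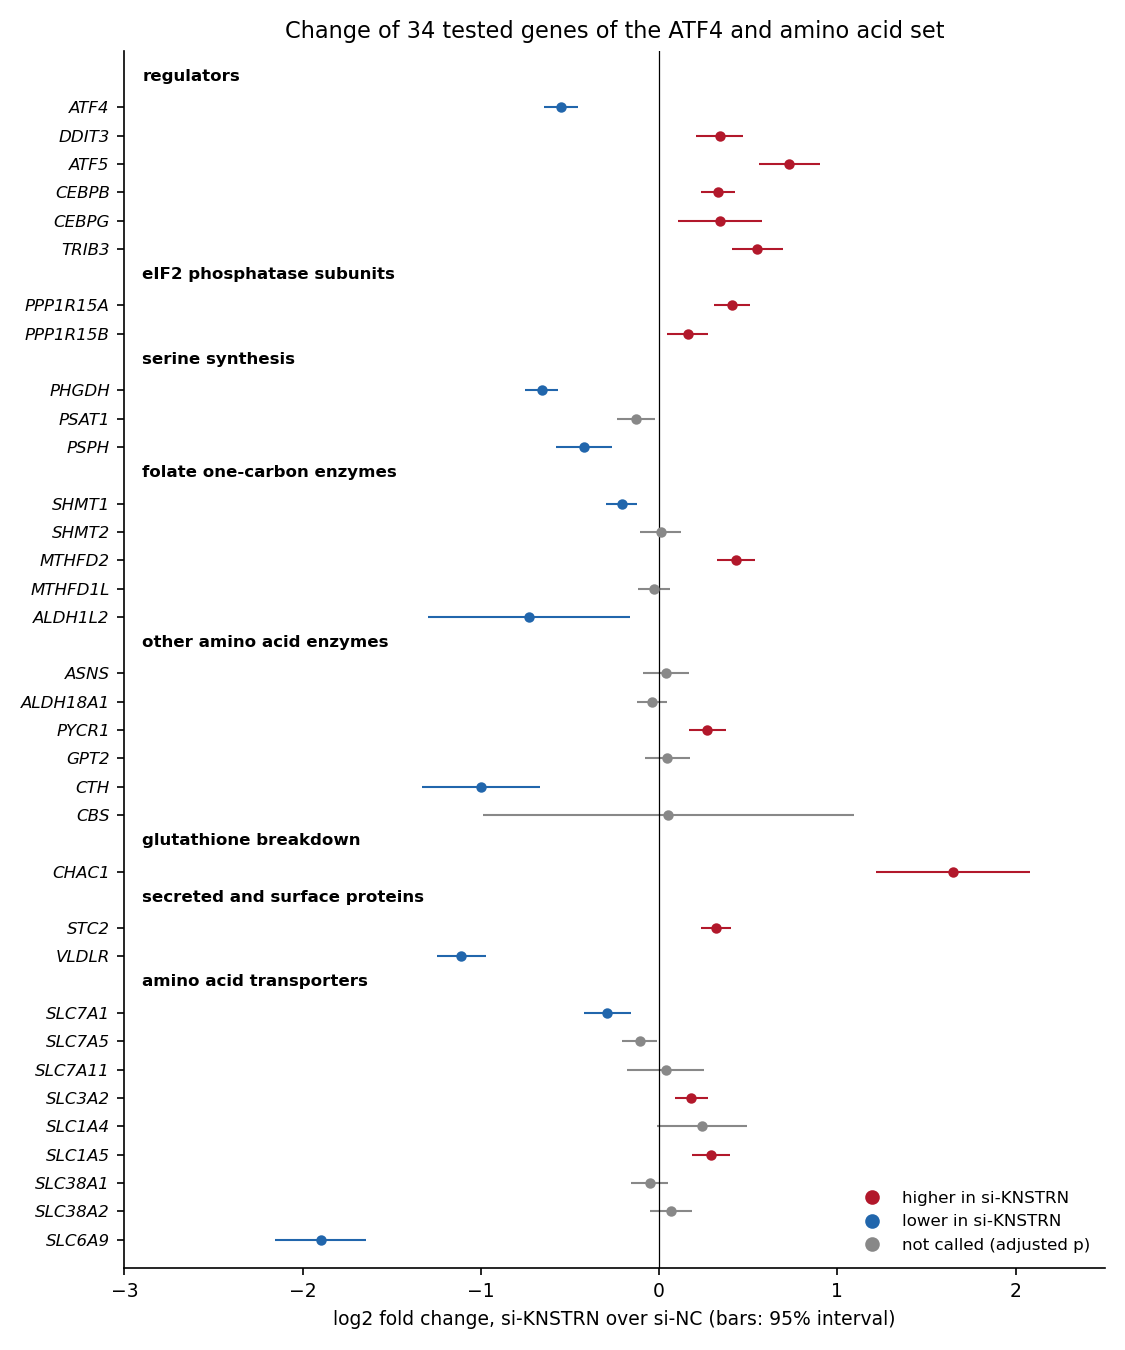
Log2 fold change (horizontal axis, si-KNSTRN over si-NC) of the 34 members tested, grouped by role, with 95% intervals as bars. Red points are higher, blue points lower and grey points not called at an adjusted p under 0.05. CHAC1 stands farthest to the right at 1.65 and SLC6A9 farthest to the left at -1.90.

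ATF4 (chromosome 22, 39520559 to 39522686, GRCh38) had 238, 235 and 218 CPM in si-KNSTRN libraries 1 to 3, against 348, 340 and 326 CPM in si-NC libraries 1 to 3. Every si-KNSTRN library lay below every si-NC library. Its log2 fold change was -0.55 (SE 0.05, adjusted p = 4.5e-08 by edgeR). Pseudogene copies and other genes share 22.6% of the 50-base windows of the ATF4 transcript, and reads from those windows may have been assigned elsewhere or discarded. RNA counts give no measure of ATF4 protein.

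The transcription factors that act with or after ATF4 went the other way. ATF5, a related leucine zipper factor with translational control of its own, had 16.5, 17.3 and 17.2 CPM in si-KNSTRN libraries, against 10.3, 11.3 and 9.34 CPM in si-NC libraries. The groups did not overlap, and the log2 fold change was 0.73 (SE 0.09, adjusted p = 2.1e-06). The span of ATF5 shares 599 bases with each of IL4I1 and NUP62. IL4I1, an amino acid oxidase gene, averaged 17.0 ± 1.43 CPM in si-KNSTRN cells and 2.31 ± 0.199 CPM in si-NC cells (SD, n = 3 each), with a log2 fold change of 2.87. NUP62 was lower, at -0.22. Whether reads of IL4I1 contributed to the ATF5 count was not tested.

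DDIT3 encodes CHOP, a factor of the C/EBP family linked to cell death under lasting stress. It had 25.4, 24.1 and 24.2 CPM in si-KNSTRN libraries, against 19.9, 18.9 and 19.6 CPM in si-NC libraries, with adjusted p = 0.00033 for its log2 fold change of 0.34 (SE 0.07). The groups were separate. The span of DDIT3 shares 65 bases with MARS1, itself higher at a log2 fold change of 0.23. TRIB3, a pseudokinase gene that CHOP and ATF4 induce, had 31.4, 36.9 and 36.8 CPM in si-KNSTRN libraries, against 24.3, 24.0 and 23.3 CPM in si-NC libraries. Library 1 showed the smallest rise of the si-KNSTRN libraries, and the log2 fold change was 0.55 (SE 0.07, adjusted p = 5.6e-06).

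The C/EBP factor genes also rose. CEBPB had 111, 113 and 109 CPM in si-KNSTRN libraries, against 89.8, 92.3 and 83.2 CPM in si-NC libraries (log2 fold change 0.33, SE 0.05). CEBPG, a dimer partner of ATF4 with no activation domain of its own, had 11.2, 11.6 and 13.4 CPM in si-KNSTRN libraries, against 7.88, 9.89 and 11.0 CPM in si-NC libraries (log2 fold change 0.34, SE 0.12, adjusted p = 0.019). The highest si-NC library nearly met the lowest si-KNSTRN library. Its call was lost without si-NC library 1 (log2 fold change 0.21, adjusted p = 0.13) and without si-KNSTRN library 3 (adjusted p = 0.059). NUPR1, a small stress-induced chromatin protein gene, was below the count filter and not tested. It had 15, 13 and 9 reads in si-KNSTRN libraries, against 2, 0 and 4 reads in si-NC libraries. These groups did not overlap, and an exact two-sided permutation test gave p = 0.10, the smallest that 3 against 3 libraries allow.

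Among genes for phosphatase subunits that undo eIF2 phosphorylation, PPP1R15A and PPP1R15B rose as well. The catalytic subunit gene PPP1CC, described below, was lower (log2 fold change -1.26). PPP1R15A, the stress-inducible GADD34, had 82.2, 85.6 and 92.0 CPM in si-KNSTRN libraries, against 66.3, 66.1 and 62.7 CPM in si-NC libraries. Its groups were clearly apart (log2 fold change 0.41, SE 0.05, adjusted p = 3.1e-06). The constitutive subunit gene PPP1R15B had 42.3, 41.7 and 41.1 CPM in si-KNSTRN libraries, against 36.3, 36.9 and 38.5 CPM in si-NC libraries. This smaller difference (log2 fold change 0.16, SE 0.06, adjusted p = 0.021) was lost with upper-quartile factors (adjusted p = 0.077). It was lost also when si-NC library 1 was left out (adjusted p = 0.084), or si-NC library 2 (0.057), si-KNSTRN library 1 (0.053) or si-KNSTRN library 2 (0.061).

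CHAC1 (chromosome 15, 40953471 to 40956512, GRCh38), which encodes a gamma-glutamylcyclotransferase that breaks down glutathione, had the largest rise among the members tested. It had 47, 59 and 63 reads in si-KNSTRN libraries, against 22, 13 and 17 reads in si-NC libraries. That is 2.38, 3.27 and 3.39 CPM in si-KNSTRN cells, against 1.08, 0.809 and 0.934 CPM in si-NC cells. Even the lowest si-KNSTRN library was far above the highest si-NC library, and the log2 fold change was 1.65 (SE 0.22, adjusted p = 5.6e-06). CHAC1 is nevertheless one of the least abundant members.

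**Figure D2:**
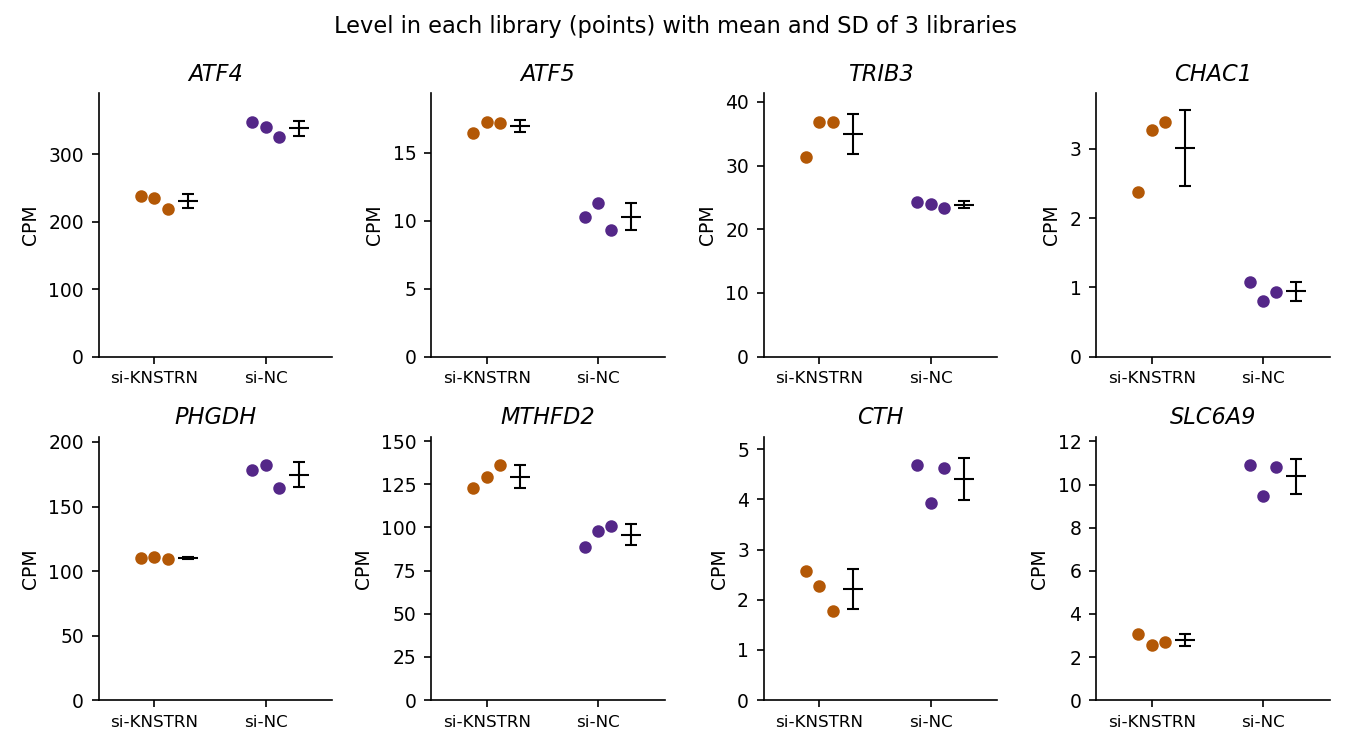
CPM (vertical axes, from 0) in each si-KNSTRN and si-NC library for 8 members, with mean and SD over 3 libraries beside the points. ATF4, PHGDH, CTH and SLC6A9 lie lower in every si-KNSTRN library, and ATF5, TRIB3, CHAC1 and MTHFD2 higher. All 8 are among the 22 of 34 members tested whose groups do not overlap, as in 67.3% of all genes tested.

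ATF4 and its C/EBP partners bind a composite element, the C/EBP-ATF response element, whose core was searched here as TGATGNAA on both strands of the RefSeq promoter windows (GRCh38.p14, from 250 bases before to 50 bases after the start). Of the 35 members, 28 have such a window. ALDH1L2, GPT2, NUPR1, PSPH, PYCR1, SHMT2 and SLC7A11 have none. The core was found in 7 of the 28 (25.0%), against 1.65% of the 10272 genes tested that have a window and 2.54% of all 15593 windows. The members were listed by their place in the ATF4 response, so this contrast is not independent of how they were chosen. The windows below show the members that carry it, read 5′ to 3′ on the strand of the gene, with the core in capitals. In CHAC1 and SLC3A2 it lies on the opposite strand. A match is a run of letters and not a measured binding site.
ASNS: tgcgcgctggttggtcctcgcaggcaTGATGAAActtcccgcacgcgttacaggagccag
CHAC1: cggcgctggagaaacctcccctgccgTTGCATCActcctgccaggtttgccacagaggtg
MTHFD1L: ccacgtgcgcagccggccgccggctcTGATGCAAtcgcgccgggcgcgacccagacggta
PPP1R15B: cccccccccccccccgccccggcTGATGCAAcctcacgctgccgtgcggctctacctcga
SLC38A1: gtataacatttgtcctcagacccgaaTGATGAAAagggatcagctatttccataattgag
SLC3A2: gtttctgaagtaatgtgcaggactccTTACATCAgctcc
SLC7A1: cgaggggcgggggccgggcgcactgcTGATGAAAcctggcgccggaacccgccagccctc

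The printed windows lie at chr7:97872443-97872502 (minus strand) for ASNS, chr15:40953236-40953295 (plus) for CHAC1 and chr6:150866331-150866390 (plus) for MTHFD1L. Those of PPP1R15B, SLC38A1 and SLC7A1 lie on the minus strand at chr1:204412008-204412067, chr12:46266487-46266546 and chr13:29595648-29595707, and that of SLC3A2 on the plus strand at chr11:62881710-62881748. Counting the first transcribed base as 0, the core starts at -68 in ASNS, -209 in CHAC1, -129 in MTHFD1L and -227 in PPP1R15B. It starts at -4 in SLC38A1, 37 in SLC3A2 and 7 in SLC7A1. Each gene was searched at 1 RefSeq start only, and other starts were not searched. For SLC3A2 the window used begins at 62881449, inside a gene span that begins at 62856109. The 7 carriers did not move as 1 group: CHAC1, SLC3A2 and PPP1R15B were higher, SLC7A1 was lower, and ASNS, MTHFD1L and SLC38A1 were not called. Among the 21 members whose window lacks the core, 9 were higher and 6 lower. Over all genes tested, 36.5% of the 170 carriers were higher and 25.3% lower, against 31.1% and 31.3% of the 10102 genes without it. The antioxidant response element core TGACNNNGC was searched because NRF2 also controls amino acid import. It was found in 9 of the 28 member windows (32.1%), against 14.8% of those of genes tested. That contrast, too, is not independent of how the members were chosen. Of its carriers, MTHFD2, PPP1R15A, SLC3A2, STC2 and TRIB3 were higher, SLC7A1 and VLDLR lower, and CBS and SLC7A5 not called.

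Serine is made from a glycolytic intermediate in 3 steps by PHGDH, PSAT1 and PSPH. PHGDH (chromosome 1, 119711934 to 119744215, GRCh38), the committed dehydrogenase, had 110, 111 and 109 CPM in si-KNSTRN libraries, against 178, 182 and 164 CPM in si-NC libraries. The si-KNSTRN libraries were nearly level with each other and well below all si-NC libraries (log2 fold change -0.66, SE 0.05, adjusted p = 6.4e-09). PSPH, the final phosphatase, had 11.7, 12.5 and 12.1 CPM in si-KNSTRN libraries, against 15.7, 16.6 and 16.2 CPM in si-NC libraries. It was again lower without overlap (log2 fold change -0.42, SE 0.08, adjusted p = 0.00022). The aminotransferase gene PSAT1, with 58.5, 60.5 and 65.7 CPM in si-KNSTRN libraries and 66.6, 64.1 and 71.2 CPM in si-NC libraries, overlapped between groups. Its log2 fold change of -0.13 (95% interval -0.24 to -0.02) just missed the threshold (adjusted p = 0.051) and passed it under 5 of the alternatives, among them the replicate block (adjusted p = 0.042) and upper-quartile factors (adjusted p = 0.0099).

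Serine hydroxymethyltransferases pass a carbon of serine to folate, SHMT1 in the cytosol and SHMT2 in mitochondria. SHMT1 had 70.1, 70.9 and 71.7 CPM in si-KNSTRN libraries, against 83.9, 81.2 and 80.1 CPM in si-NC libraries, a separate but small difference (log2 fold change -0.21, SE 0.05, adjusted p = 0.00083). SHMT2 was the more abundant per length, at 86.8 CPM per kilobase of transcript in si-KNSTRN cells and 86.3 in si-NC cells. SHMT1 was at 28.8 CPM per kilobase in si-KNSTRN cells and 33.2 in si-NC cells. SHMT2 had 201, 217 and 242 CPM in si-KNSTRN libraries and 215, 229 and 213 CPM in si-NC libraries, and was not called (log2 fold change 0.008, 95% interval -0.11 to 0.12).

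The mitochondrial enzymes after SHMT2 differed among themselves. MTHFD2, a dehydrogenase and cyclohydrolase that many tumours express, had 123, 129 and 136 CPM in si-KNSTRN libraries, against 88.8, 97.7 and 101 CPM in si-NC libraries. Every si-KNSTRN library exceeded every si-NC library (log2 fold change 0.43, SE 0.05, adjusted p = 3.6e-06). MTHFD1L, which releases formate, averaged 87.7 ± 1.99 CPM in si-KNSTRN cells and 89.5 ± 2.59 CPM in si-NC cells (SD, n = 3 each) and was not called (95% interval of the log2 fold change -0.12 to 0.06). ALDH1L2, a mitochondrial formyltetrahydrofolate dehydrogenase, was scarce, with 23, 13 and 10 reads in si-KNSTRN libraries, against 29, 18 and 27 reads in si-NC libraries. Its fall (log2 fold change -0.73, SE 0.29, adjusted p = 0.035) came with overlapping libraries. The call was lost in DESeq2 (adjusted p = 0.11). Leaving out si-NC library 1 (adjusted p = 0.099), si-NC library 3 (0.11), si-KNSTRN library 2 (0.096) or si-KNSTRN library 3 (0.15) also ended it.

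**Figure D3:**
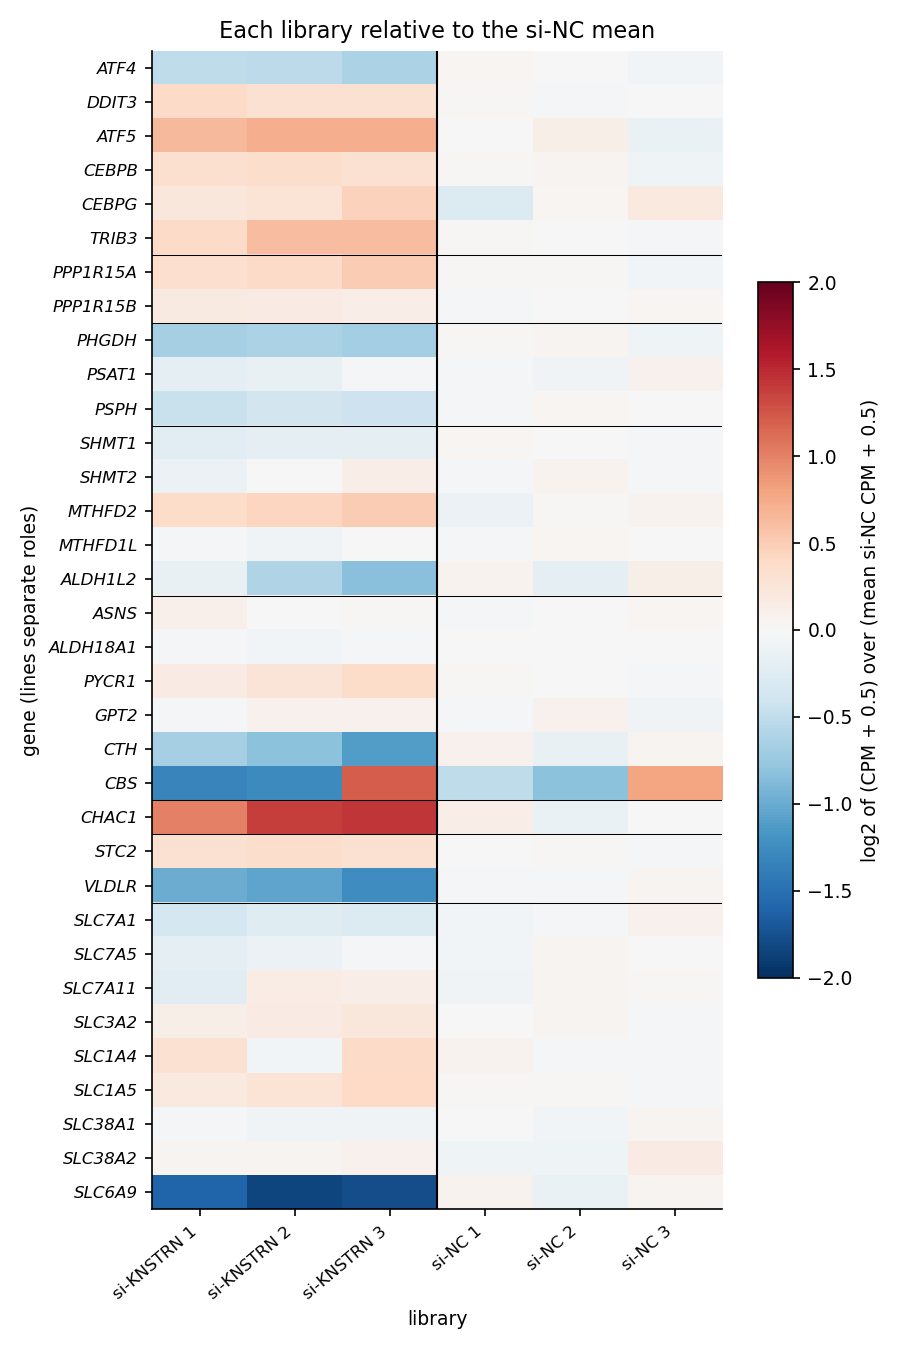
Log2 ratio (colour) of each library (columns, si-KNSTRN left of the line, si-NC right) to the si-NC mean for the 34 members tested (rows, by role), after 0.5 CPM was added. In CBS, library 3 stands above libraries 1 and 2 in both groups. In CHAC1, TRIB3 and several other members, among them CTH and VLDLR, the si-KNSTRN library 1 departs least from si-NC. In others, such as DDIT3 and SLC7A1, it departs most.

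Among the other amino acid enzymes, asparagine synthetase was not called. ASNS had 24.8, 23.1 and 23.5 CPM in si-KNSTRN libraries and 22.9, 23.0 and 23.7 CPM in si-NC libraries, with a 95% interval of the log2 fold change from -0.09 to 0.17. A GENCODE gene that the count table does not list shares 82% of the windows of its transcript. Proline is made by ALDH18A1 and PYCR1. PYCR1 had 79.7, 85.1 and 91.0 CPM in si-KNSTRN libraries, against 72.1, 71.3 and 68.9 CPM in si-NC libraries (log2 fold change 0.27, SE 0.05, adjusted p = 0.00032). ALDH18A1, 1 step before it, averaged 297 ± 2.51 CPM in si-KNSTRN cells and 306 ± 2.77 CPM in si-NC cells (SD, n = 3 each). Its libraries did not overlap, yet it was not called (log2 fold change -0.04, adjusted p = 0.41). The alanine aminotransferase gene GPT2 averaged 37.0 ± 1.91 CPM in si-KNSTRN cells and 35.8 ± 1.93 CPM in si-NC cells and was not called.

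Cysteine is made from homocysteine by CBS and CTH. CTH (chromosome 1, 70411268 to 70439851, GRCh38), the cystathionine gamma-lyase, had 51, 41 and 33 reads in si-KNSTRN libraries, against 95, 63 and 84 reads in si-NC libraries, or 2.58, 2.27 and 1.78 CPM in si-KNSTRN cells, against 4.68, 3.92 and 4.62 CPM in si-NC cells. All si-KNSTRN libraries were lower (log2 fold change -1.0, SE 0.17, adjusted p = 7.5e-05). CBS had 57, 54 and 353 reads in si-KNSTRN libraries, against 110, 69 and 257 reads in si-NC libraries. Library 3 was highest in both groups. CBS shares 94.5% of its windows with the near-identical gene CBSL, which makes its counts uncertain. It was not called (log2 fold change 0.05, SE 0.53), but without si-KNSTRN library 3 it was called lower, with a log2 fold change of -1.44 (adjusted p = 0.00035).

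Both a secreted and a surface protein gene changed. STC2, which encodes the glycoprotein stanniocalcin 2, had 234, 242 and 235 CPM in si-KNSTRN libraries, against 188, 194 and 188 CPM in si-NC libraries (log2 fold change 0.32, SE 0.04, adjusted p = 7.3e-06). VLDLR (chromosome 9, 2621787 to 2660056, GRCh38), the very low density lipoprotein receptor gene, had 27.6, 26.4 and 22.9 CPM in si-KNSTRN libraries, against 54.6, 53.9 and 57.3 CPM in si-NC libraries. All 3 si-KNSTRN libraries were far below all si-NC libraries (log2 fold change -1.11, SE 0.07, adjusted p = 1.2e-09). Both genes are also known to respond to low oxygen.

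Of the 9 amino acid transporters, 2 were higher, 2 lower and 5 not called, so that 44.4% were called, beside 62.5% of all genes tested. Per kilobase of transcript, SLC3A2, the heavy chain that carries several light chains to the membrane, was the most abundant, at 121 CPM per kilobase in si-KNSTRN cells and 107 in si-NC cells. SLC38A2 (57.5 in si-KNSTRN and 54.8 in si-NC cells), SLC7A5 (38.7 in si-KNSTRN and 41.7 in si-NC cells) and SLC1A5 (31.1 in si-KNSTRN and 25.5 in si-NC cells) followed, and SLC38A1, SLC7A1, SLC6A9, SLC1A4 and SLC7A11 were at or below 6.32 in both groups. Lengths are those of 1 GENCODE transcript per gene, so this order depends on which isoform the cells use.

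SLC6A9 (chromosome 1, 43996483 to 44031462, GRCh38) encodes the glycine transporter GLYT1 and had the largest fall among the members. It had 61, 46 and 50 reads in si-KNSTRN libraries, against 221, 152 and 197 reads in si-NC libraries, or 3.08, 2.55 and 2.69 CPM in si-KNSTRN cells, against 10.9, 9.45 and 10.8 CPM in si-NC cells. The groups were far apart (log2 fold change -1.90, SE 0.13, adjusted p = 2.0e-09). Its span shares 46 bases with CCDC24, which was lower too, by a log2 fold change of -0.64. SLC7A1, an importer of arginine and lysine, had 25.9, 28.0 and 27.3 CPM in si-KNSTRN libraries, against 31.8, 32.3 and 35.2 CPM in si-NC libraries (log2 fold change -0.29, SE 0.07, adjusted p = 0.0013).

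The glutamine carrier gene SLC1A5 rose. It had 83.7, 88.5 and 96.8 CPM in si-KNSTRN libraries, against 74.5, 74.2 and 71.5 CPM in si-NC libraries (log2 fold change 0.29, SE 0.05, adjusted p = 0.00021). SLC3A2 had 252, 260 and 273 CPM in si-KNSTRN libraries, against 229, 241 and 225 CPM in si-NC libraries (log2 fold change 0.18, SE 0.05, adjusted p = 0.0040). In both, the groups did not overlap. The light chain genes SLC7A5 and SLC7A11, whose products pair with SLC3A2, were not called. SLC7A5, the leucine importer LAT1, had 167, 174 and 186 CPM in si-KNSTRN libraries and 183, 197 and 188 CPM in si-NC libraries (log2 fold change -0.11, adjusted p = 0.075), and was called lower without si-KNSTRN library 3 (adjusted p = 0.013) and with upper-quartile factors (adjusted p = 0.014). SLC7A11, the cystine importer xCT, had 8.04, 10.5 and 10.4 CPM in si-KNSTRN libraries and 8.92, 9.77 and 9.51 CPM in si-NC libraries (95% interval of the log2 fold change -0.18 to 0.25).

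The neutral amino acid carriers SLC38A1, SLC38A2 and SLC1A4 were not called either, with log2 fold changes of -0.05, 0.07 and 0.24. SLC38A2 had 278, 279 and 285 CPM in si-KNSTRN libraries and 251, 252 and 300 CPM in si-NC libraries. The si-NC library 3 lay above all others, and without it the gene was called higher (log2 fold change 0.16, adjusted p = 0.0054). SLC1A4 had 7.33, 5.65 and 7.81 CPM in si-KNSTRN libraries and 6.16, 5.72 and 5.71 CPM in si-NC libraries, and was called higher without si-KNSTRN library 2 (log2 fold change 0.37, adjusted p = 0.021).

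**Figure D4:**
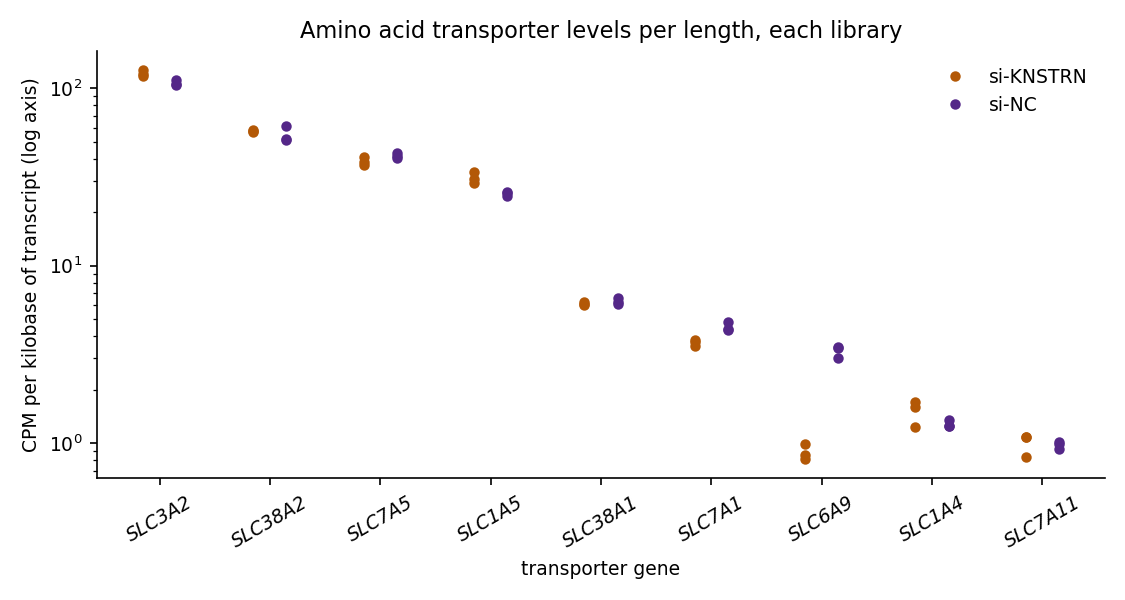
CPM per kilobase of transcript (log axis) of the 9 amino acid transporter genes in each si-KNSTRN (orange, left) and si-NC (purple, right) library, ordered by the si-NC mean. SLC6A9 is the gene whose groups stand farthest apart, at means of 0.887 in si-KNSTRN and 3.32 in si-NC cells.

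Earlier results of these data had shown that genes with TGAGTA in the 3′ untranslated region were called lower more often, so the members were searched for the same letters in 1 GENCODE transcript each. The word was found in 12 of the 35 members (34.3%), against 26.9% of the 12156 genes tested with a region of at least 50 bases. Of the 11 carriers tested, 4 were lower (ALDH1L2, CTH, SLC7A1 and VLDLR), 4 higher (CEBPB, CEBPG, MTHFD2 and TRIB3) and 3 not called (SLC38A1, SLC38A2 and SLC7A11). Over all genes tested, 41.1% of 3271 carriers were lower and 22.2% higher, against 27.9% and 34.9% of 8885 genes without the word. This contrast comes from the same data in which the word was first noted, and so adds no independent evidence. The length of the region, on which finding a word depends, was not taken into account. Of the 23 members without it, 5 were lower (ATF4, PHGDH, PSPH, SHMT1 and SLC6A9) and 9 higher. The sites of the 3 members with the longest form CTGAGTAA and of VLDLR, which had the largest fall among the carriers, are shown because they bear the same letters in genes that moved in opposite directions. The word and its matching neighbours are in capitals, in 30 bases of the transcript.
CTH: atcaaatcttcCTGAGTAAttaaatggacc
SLC7A1: ctggctgtgtcCTGAGTAActggaacatga
CEBPB: tcagccgggccCTGAGTAAtcgcttaaaga
VLDLR: gaactcctatcCTGAGTAgtaccaagtgtt

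Other genes of the same pathways were summarised from lists chosen by function, with earlier results of these data known. Their counts stand beside the 31.2% higher and 31.3% lower of all genes tested. Of 20 further ATF4 and stress response targets tested, 10 were higher, 5 lower (25.0%) and 5 not called, with a median log2 fold change of 0.06, beside -0.01 over all genes tested. GDF15, a secreted stress cytokine gene, averaged 26.0 ± 3.23 CPM in si-KNSTRN cells and 2.13 ± 0.302 CPM in si-NC cells (SD, n = 3 each). DDIT4, an inhibitor of mTORC1 also induced by low oxygen, averaged 136 ± 10.9 CPM in si-KNSTRN cells and 423 ± 30.6 CPM in si-NC cells. The oxidase gene ERO1A was lower as well, at 91.9 ± 6.74 CPM in si-KNSTRN cells and 154 ± 7.30 CPM in si-NC cells. Their log2 fold changes were 3.62, -1.63 and -0.75, each with groups that did not overlap.

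Of 19 genes that set and read eIF2 phosphorylation, 9 were higher (47.4%) and 6 lower (31.6%, near the share of all genes), with a median log2 fold change of -0.01. EIF2S1, the alpha subunit that the kinases phosphorylate, averaged 180 ± 8.09 CPM in si-KNSTRN cells and 108 ± 3.38 CPM in si-NC cells (SD, n = 3 each; log2 fold change 0.74). EIF2S3, the gamma subunit, averaged 188 ± 14.4 CPM in si-KNSTRN cells and 352 ± 9.77 CPM in si-NC cells (log2 fold change -0.91, adjusted p = 6.0e-10 by edgeR). PPP1CC, a catalytic subunit of protein phosphatase 1, averaged 111 ± 18.4 CPM in si-KNSTRN cells and 266 ± 13.3 CPM in si-NC cells (log2 fold change -1.26).

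Of 26 further folate and methionine cycle genes, 9 were higher (34.6%) and 7 lower (26.9%), with a median log2 fold change of 0.11. The share called, 61.5%, was near the 62.5% of all genes tested. TYMS, the thymidylate synthase gene, averaged 85.9 ± 6.16 CPM in si-KNSTRN cells and 207 ± 1.30 CPM in si-NC cells (SD, n = 3 each). It overlaps ENOSF1, which was lower by a log2 fold change of -0.83. MAT2B, a regulator of S-adenosylmethionine synthesis, averaged 48.9 ± 6.37 CPM in si-KNSTRN cells and 126 ± 7.11 CPM in si-NC cells. AMT, a subunit of the glycine cleavage system, averaged 4.89 ± 0.194 CPM in si-KNSTRN cells and 11.3 ± 1.72 CPM in si-NC cells, and overlaps NICN1, lower at -0.65. The log2 fold changes of these 3 genes were -1.27, -1.36 and -1.21.

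**Figure D5:**
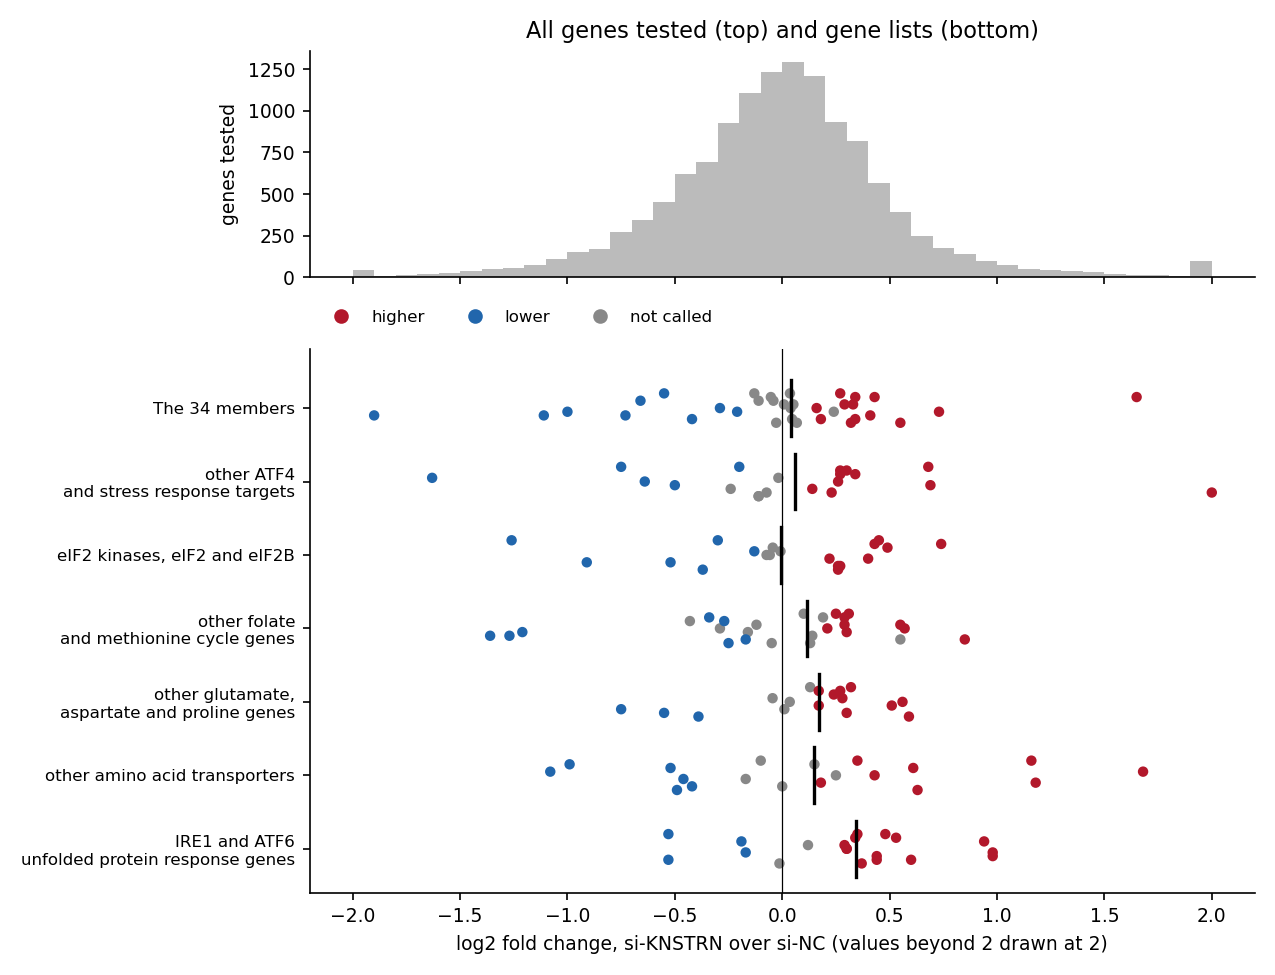
Log2 fold changes (horizontal axis, si-KNSTRN over si-NC) of all genes tested as a histogram (top, number of genes) and of the 34 members and 6 further gene lists as points (bottom), with a black bar at each median and values beyond 2 drawn at 2. Red points are higher, blue points lower and grey points not called. The members' median is 0.04, and that of the unfolded protein response list, the highest of the 7 lists drawn, is 0.34.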

How the data were processed

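RNA libraries of T24 cells treated with si-KNSTRN or si-NC for 24 h, 3 of each, were grouped by sample title. The deposited values are the authors' raw read counts per gene. The submitters' processing notes name featureCounts, HISAT2 2.0.1, fastp 0.20.0 and FastQC 0.11.5, with the genome build GRCh38. Strand setting, multiply aligned reads and annotation release: not given in the sources used here. Reads of overlapping genes and of near-identical copies can therefore not be told apart.

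All 12650 genes left by filterByExpr (minimum count 10) were fitted in edgeR 4.0.16 (R 4.3.3) by the quasi-likelihood method (two-sided, TMM factors, no covariates). P-values were adjusted by Benjamini-Hochberg over all of them, and 0.05 was the threshold. Levels are TMM-scaled CPM. Standard errors were derived from the log2 fold change and the test statistic. Intervals are 95% intervals from that standard error under a normal approximation, which makes them somewhat narrower than the test itself implies. Replicate pairs differed by more than sampling noise (chi-square per degree of freedom 2.16 to 10.3), and none was merged. Pairs with library 3 differed most in both groups, at 10.3 and 6.98 in si-KNSTRN and 4.35 and 4.02 in si-NC. Libraries 1 and 2 gave 2.6 in si-KNSTRN and 2.16 in si-NC. Alternatives were other scalings and filters, DESeq2 1.42.0, limma-voom (limma 3.58.1), a replicate block, an adjusted p under 0.01 and leaving out each library.

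All members, KNSTRN and the 3 smallest p of each further list are named, except 1 gene that is not reported here. The members and lists were chosen with earlier results of these data known. Promoters and coordinates came from RefSeq (GRCh38.p14), transcripts from GENCODE release 29. Summaries were made in Python 3.11.15 with pandas 2.3.3.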

Additional observations from a re-analysis of the deposited data

How the results depend on the processing

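The number of members called higher ranged from 11 to 15 and of members called lower from 8 to 11 over all alternatives, against 13 and 9 as reported. Each stayed within 1.5 times the reported count, as did the counts over all genes. Without 1 library, 19 to 21 of the 22 called members were called again in the same direction. The calls lost by leaving out libraries were those of CEBPG, PPP1R15B and ALDH1L2, given above. Directions that turned belonged to members not called as reported. SHMT2 had a log2 fold change of -0.036 with upper-quartile factors and -0.0062, -0.013 and -0.064 without si-NC library 1, si-NC library 3 and si-KNSTRN library 3, and at most 0.069 on leaving out any 1 library. SLC7A11 had -0.0077 with upper-quartile factors and -0.0031, -0.027 and -0.023 without si-NC library 1, si-KNSTRN library 2 and si-KNSTRN library 3, and at most 0.15. ASNS had -0.0042 with upper-quartile factors and MTHFD1L 0.0091 with library size alone. CBS had -0.12 with the replicate block, -0.36 with limma-voom, and -0.17, -0.23 and -1.44 without si-NC library 1, si-NC library 2 and si-KNSTRN library 3, and at most 0.75. The cause of these turns was not tested. The replicate block gave 13 members higher and 10 lower, the added one being PSAT1. Deviations from the group means correlated at -0.063, 0.053 and -0.034 between same-numbered libraries, and at -0.062 to 0.098 between libraries of unlike number. These values show no pairing by number, but they cannot tell whether the libraries were prepared in pairs. At an adjusted p under 0.01, 11 members were higher and 8 lower. Without the low-count filter, NUPR1 was tested and higher (log2 fold change 2.51, adjusted p = 0.0002). Depth limits CHAC1, CTH, ALDH1L2 and NUPR1 most.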

Other observations

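Genes of the IRE1 and ATF6 arms of the unfolded protein response, which act beside the ATF4 arm in the endoplasmic reticulum, were higher in si-KNSTRN cells in 14 of 20 cases and lower in 4, beside 31.2% higher and 31.3% lower over all genes tested. Their median log2 fold change was 0.34, beside -0.01 over all genes tested. The list was chosen with earlier results of these data known, so this contrast is a description and not an independent test. The 4 that were lower, named after their values were seen, were HSP90B1 (-0.53), EDEM1 (-0.53), SEL1L (-0.19) and PDIA4 (-0.17). The 3 with the smallest p were all higher. HERPUD1, a degradation factor gene, averaged 109 ± 4.61 CPM in si-KNSTRN cells and 55.2 ± 2.13 CPM in si-NC cells (SD, n = 3 each). SDF2L1 averaged 45.0 ± 4.21 CPM in si-KNSTRN cells and 22.9 ± 1.30 CPM in si-NC cells, and the chaperone gene HYOU1 291 ± 11.4 CPM in si-KNSTRN cells and 192 ± 3.91 CPM in si-NC cells. Their log2 fold changes were 0.98, 0.98 and 0.60, with groups that did not overlap.

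Of 17 further glutamate, aspartate and proline genes tested, 10 were higher (58.8%) and 3 lower (17.6%). The mitochondrial aspartate aminotransferase gene GOT2 averaged 222 ± 11.0 CPM in si-KNSTRN cells and 147 ± 0.204 CPM in si-NC cells. The branched-chain aminotransferase gene BCAT1 was lower (log2 fold change -0.39). Of 19 further amino acid transporters tested, 8 were higher (42.1%) and 6 lower (31.6%). The shares of all genes are those given above. SLC7A2, a cationic amino acid carrier, averaged 19.9 ± 0.409 CPM in si-KNSTRN cells and 8.85 ± 1.51 CPM in si-NC cells (log2 fold change 1.16), whereas SLC7A1, which carries the same class of amino acids, was lower at -0.29. The taurine carrier gene SLC6A6 averaged 28.1 ± 0.800 CPM in si-KNSTRN cells and 55.7 ± 1.17 CPM in si-NC cells. The glutamate carrier gene SLC1A1 averaged 6.42 ± 0.185 CPM in si-KNSTRN cells and 13.5 ± 0.387 CPM in si-NC cells.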
